A study of Mus musculus with 3 samples.

Results

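The anterior genes of the HoxD cluster, Hoxd8, Hoxd4, Hoxd3 and Hoxd1, lie at the end of the cluster that faces Mtx2, and beyond them begins a gene desert. Peaks of RNA polymerase II (RNAP2) and of the Mediator subunit Med12 were collected in the spans and within 1 kb of the starts of these 5 genes, and in the 850 kb of chromosome 2 beyond the end of Hoxd1 on the Mtx2 side. The choice used positions alone. It took 35 of the 20479 peaks in the RNAP2 list, of which 13 lie in the genes and 26 in the 850 kb, with 4 in both because Mtx2 stands inside the desert. From the Med12 list it took 30 of 10634 peaks, all in the 850 kb, with 7 of them in Mtx2.

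Both proteins were mapped by ChIP-seq in cells of distal forelimbs, the presumptive hand, dissected from mouse embryos at E12.5. The series comprises 3 libraries, with 1 for each antibody and 1 input library, and peak lists were read for both antibodies. The labels name neither a strain nor a genotype nor the number of embryos in a library, and the series text names an earlier stage than the sample labels, which are followed here. There is a single condition without replicates, so none of the values has a replicate error and no difference was tested. Each peak carries a score, on the scale of -10 times log10 of its p-value, which was ranked within its own list and never compared between the lists. The lists give no read counts, so the depth at a peak is unknown, and binding below their lowest score of 40 would not be seen in them. Positions are in mm9, with genes from GENCODE vM1.

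HOX proteins are homeodomain transcription factors that give cells their position along the body axis and the limb. The genes of a cluster are switched on in their order along the chromosome, and in the limb HoxD is known for a pair of regulatory landscapes on opposite sides. Enhancers on the Mtx2 side act on the anterior and central genes in the early limb bud and in the forearm, while those on the other side act on the posterior genes in the digits. RNAP2 marks genes that are transcribed or poised and is also found at active enhancers, where Mediator links bound transcription factors to the polymerase.

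The labelled tissue was checked against marker genes. An RNAP2 peak lay within 1 kb of a protein-coding start at 8 of 9 limb mesenchyme genes, beside 41.8% of all protein-coding genes. One also lay at the forelimb gene Tbx5, with a score of 1987, and at 3 of 3 distal limb genes. The exception among the mesenchyme genes was Sall4. Of the hindlimb genes, Pitx1 had a peak with a score of 99.3 and Tbx4 had none. No RNAP2 peak stood at the starts of 5 ectoderm and 5 blood genes, and 2 of 5 muscle lineage, 1 of 4 endothelial and 1 of 3 nerve genes had one. Med12 had a peak at a start of 4 of the 9 mesenchyme genes, beside 8.97% of all protein-coding genes. It had none at the starts of Tbx5, of the distal limb and hindlimb genes, or of the ectoderm, blood, muscle, endothelial and nerve genes. The part of these other cell types in the peaks described below was not tested.

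RNAP2 peaks were found at the starts of Hoxd8, Hoxd3, Hoxd4 and Mtx2, and none at Hoxd1. These are 4 of 5 genes, beside 41.8% of all 22372 protein-coding genes. Med12 had no peak at the start of any of the 5, beside 8.97% of all protein-coding genes, and 8.32% of all had both. Counted by transcript, 8 of 13 protein-coding starts of these genes had an RNAP2 peak and 0 a Med12 peak, beside 41.9% and 8.54% of all protein-coding starts. The reference sequence of these promoters is shown for the members that carry a peak, so that the starts can be compared in their letters, and for Hoxd1, which falls outside the rule for printed sequences and was added after its values were seen. Each runs from 250 bases before to 50 bases after the annotated start on the plus strand. Capitals mark matches on either strand to the core promoter letters TATAAA, to the letters CCAAT known from the site of NF-Y, and to the letters GGGCGG of the GC box. They also mark the posterior HOX letters CAATAAAA, the letters TGATTNAT of PBX with HOX, and the GLI letters TGGGTGGTC.
Hoxd8 promoter, mm9 chr2:74542422-74542721, plus strand: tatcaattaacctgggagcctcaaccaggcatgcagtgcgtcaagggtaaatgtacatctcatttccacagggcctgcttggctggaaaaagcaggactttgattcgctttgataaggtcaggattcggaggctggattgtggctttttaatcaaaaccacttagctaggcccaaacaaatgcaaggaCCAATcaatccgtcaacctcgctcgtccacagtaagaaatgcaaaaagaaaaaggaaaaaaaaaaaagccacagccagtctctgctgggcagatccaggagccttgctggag
Hoxd3 promoter, mm9 chr2:74549736-74550035, plus strand: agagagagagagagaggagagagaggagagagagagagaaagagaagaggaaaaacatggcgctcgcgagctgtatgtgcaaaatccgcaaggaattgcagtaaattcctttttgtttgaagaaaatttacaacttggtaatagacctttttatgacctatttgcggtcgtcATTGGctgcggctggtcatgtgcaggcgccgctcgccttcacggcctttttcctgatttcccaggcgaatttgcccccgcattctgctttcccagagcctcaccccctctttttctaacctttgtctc
Hoxd4 promoter, mm9 chr2:74559785-74560084, plus strand: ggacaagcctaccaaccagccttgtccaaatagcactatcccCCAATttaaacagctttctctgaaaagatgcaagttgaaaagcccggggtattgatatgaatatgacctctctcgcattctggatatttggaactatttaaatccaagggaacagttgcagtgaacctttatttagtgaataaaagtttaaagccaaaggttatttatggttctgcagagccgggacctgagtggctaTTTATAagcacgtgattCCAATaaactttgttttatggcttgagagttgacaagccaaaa
Hoxd1 promoter, mm9 chr2:74600787-74601086, plus strand: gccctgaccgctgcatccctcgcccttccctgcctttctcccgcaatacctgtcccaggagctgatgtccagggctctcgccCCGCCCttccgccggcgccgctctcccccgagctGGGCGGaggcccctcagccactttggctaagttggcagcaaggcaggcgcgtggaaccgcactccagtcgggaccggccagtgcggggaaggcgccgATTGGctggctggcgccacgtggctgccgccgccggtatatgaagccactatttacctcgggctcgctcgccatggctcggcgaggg
Mtx2 promoter, mm9 chr2:74663610-74663909, plus strand: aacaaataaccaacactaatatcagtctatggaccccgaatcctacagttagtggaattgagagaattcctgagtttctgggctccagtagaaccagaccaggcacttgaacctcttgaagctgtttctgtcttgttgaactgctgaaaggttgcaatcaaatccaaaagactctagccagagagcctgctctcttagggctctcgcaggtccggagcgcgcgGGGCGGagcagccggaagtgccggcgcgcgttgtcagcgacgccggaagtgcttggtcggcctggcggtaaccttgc

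The letters CCAAT occurred in 4 of the 5 promoters, all but that of Mtx2, beside 37.9% of the promoters of 22367 protein-coding genes. They began at position -62 in Hoxd8, at -208 and 8 in Hoxd4, and on the minus strand at -78 in Hoxd3 and -37 in Hoxd1, counted from the annotated start as 1. GGGCGG occurred in 2 of 5, once in Mtx2 at -27 and in 2 copies in Hoxd1, at -134 and on the minus strand at -168, beside 43.4% of all promoters. TATAAA was found in that of Hoxd4 alone, on the minus strand at -10, beside 13.4% of all promoters. None of the 5 held the posterior HOX, PBX-HOX or GLI letters, which occur in 1.64%, 2.85% and 0.206% of all promoters. These matches are letters in a window and not bound sites.

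The promoter of Hoxd1, the only member without a peak at its start, had the highest GC content of the 5, at 69.7%, with a CpG ratio (observed over expected) of 0.805. That of Hoxd4 was the lowest in both, at 39.7% and 0.339. Hoxd8 followed with 46.7% and 0.367, then Hoxd3 with 48.3% and 0.744, and Mtx2 with 54.0% and 0.778. Across all protein-coding promoters the middle 50% of values ran from 47.0% to 63.3% for GC content and from 0.217 to 0.811 for the CpG ratio. RefSeq places the starts of Hoxd8, Hoxd4 and Hoxd1 at the same base, that of Hoxd3 64 bp and that of Mtx2 9 bp further downstream.

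Hoxd8 (ENSMUSG00000027102.4) spans 74542672 to 74545990 and had RNAP2 peaks over most of its length. The 3 protein-coding starts of the gene lay under a peak of 3549 bp, from 74539807 to 74543355, that scored 363, and a second, from 74543814 to 74545274, followed inside it and scored 316. They ranked 5132 and 5671 in the list. By its centre the first lay in an exon of the antisense gene 1700109F18Rik, before the start of Hoxd8, and the second in introns of both genes. The share of each gene in these peaks cannot be told apart. Together the peaks covered 64.6% of Hoxd8, the largest share among the 5 members. The nearest Med12 peak was 5213 bp from the start, on the side of Hoxd9.

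Hoxd3 (ENSMUSG00000079277.2) is the longest of the 4 Hox members in this annotation, from 74549986 to 74586331, and its span encloses Hoxd4. It held 7 RNAP2 peaks, and 31.7% of its length was covered. The peak at its first start, from 74549219 to 74551912, scored 391. Peaks with scores of 241, 76.8 and 86.2 lay between 74570720 and 74576474, within 1 kb of the inner starts of Hoxd3-006 and Hoxd3-004. The other inner starts of protein-coding transcripts, Hoxd3-003, Hoxd3-005 and Hoxd3-007, had none within 1 kb. The highest score of the 13 peaks in the member genes, 613 at rank 3379, belonged to a peak of 3608 bp over the 3′ end of Hoxd3, from 74585206 to 74588813. It also covered the start of the antisense transcript 6720416L17Rik-201 at 74588563. Likewise the peak at the first start of Hoxd3 covered starts of the antisense gene 1700109F18Rik, at 74550111 and 74550583, and a peak with a score of 54.2 lay 464 bp from another annotated start of that gene. ChIP-seq reads carry no information on the strand of transcription, so the share of the sense and the antisense gene in such a peak cannot be told apart.

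Hoxd4 (ENSMUSG00000042464.6), from 74560035 to 74567217, had a single RNAP2 peak, from 74558889 to 74560537, which lay over its first start and scored 78.2. This ranked 13463, in the lower part of the list, and 7.00% of the gene was covered. The inner start of Hoxd4-001, at 74565131, had no RNAP2 peak within 4594 bp. The microRNA gene Mir10b, annotated at 74564127 inside Hoxd4, had none within 3590 bp.

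Hoxd1 (ENSMUSG00000042448.3), from 74601037 to 74603200, had no peak of either list in its span or within 1 kb of its start, as was the case for 51.7% of all protein-coding genes. The nearest RNAP2 peak ended 12224 bp before the start and was the one with a score of 613 at the end of Hoxd3. The nearest Med12 peak was 63578 bp away, at Hoxd9. Close by, the start of 6720416L17Rik-001 at 74600953, which runs in the opposite direction, had no peak within 12140 bp.

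Mtx2 (ENSMUSG00000027099.9), the gene of metaxin 2, a component of protein import into mitochondria, spans 74663860 to 74716488 and starts 60.7 kb beyond Hoxd1. Its start was covered by an RNAP2 peak, from 74663292 to 74664849, that scored 231. With a CpG ratio of 0.826 it had the highest of the 26 peaks in the desert. A further 3 RNAP2 peaks lay at 74705258 to 74706304, 74706683 to 74708059 and 74708678 to 74710010, with scores of 48.3, 81.7 and 47.9. Of these the peak of 81.7 covered the start of Mtx2-003, a transcript with a retained intron. The Med12 peaks of Mtx2 all lay in its introns by their centres. The highest, from 74705405 to 74707000, scored 104 and overlapped the RNAP2 peaks of 48.3 and 81.7. The other 6, spread over 32.7 kb from 74669962 to 74702656 with scores of 42.3 to 58.9, met no RNAP2 peak. A Med12 peak in the span or within 1 kb of the gene start was found for 17.3% of all protein-coding genes.

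Along the cluster, RNAP2 was denser and Med12 present on the posterior side. From Evx2 to Hoxd9, 6 RNAP2 peaks with widths of 1503 to 16825 bp covered 96.5% of 47217 bp, with scores of 54.1 to 2606. From Hoxd8 to Hoxd1, 9 peaks with widths of 1256 to 3608 bp covered 27.9% of 60529 bp, with scores of 54.2 to 613. The median widths were 8264 bp and 1649 bp. Med12 had 4 peaks from Evx2 to Hoxd9, which covered 9.30%, and 0 from Hoxd8 to Hoxd1. Between the last Med12 peak of the posterior side, from 74536430 to 74537459 at Hoxd9 with a score of 92.4, and the first beyond it, in Mtx2 with a score of 42.3, 133 kb held no Med12 peak. The stretch without Med12 thus contained all 4 anterior genes and the start of Mtx2. A gap of this length is common in the list, where the median distance between neighbouring Med12 peaks was 118 kb and the 95th percentile 844 kb.

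**Figure D1:**
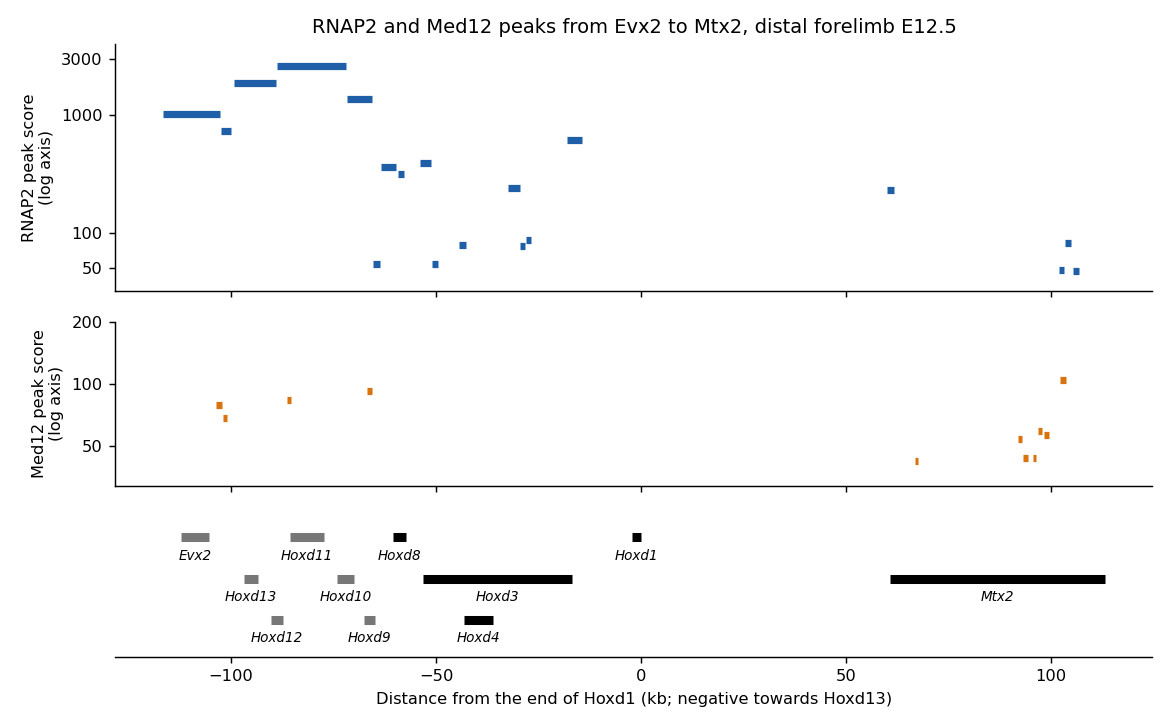
RNAP2 peaks (top, blue) and Med12 peaks (middle, orange) from Evx2 to Mtx2, each drawn as a bar from its start to its end at the height of its score on a log axis, against the distance from the end of Hoxd1 in kb. Genes are drawn at the bottom, with the 5 members in black. RNAP2 peaks with scores up to 2606 cover 96.5% of the stretch from Evx2 to Hoxd9. From Hoxd8 to Hoxd1 they score up to 613, cover 27.9% and leave Hoxd1 bare. The peaks at Hoxd8 follow closely on those of the posterior side, and the first wide gap lies beyond Hoxd8. Med12 has no peak for 133 kb between Hoxd9 and Mtx2, beside a median distance of 118 kb between Med12 peaks in the whole list.

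An RNAP2 peak stood at the start of all 6 posterior genes, beside 41.8% of all protein-coding genes. The highest scores were 1019 at Evx2, 1855 at Hoxd13 and Hoxd12, 2606 at Hoxd11 and Hoxd10, and 1369 at Hoxd9. The genes of a pair share 1 wide peak, so these are 4 peaks. Each score was above the highest at a member start, 391. Within 1 kb of a protein-coding start, Med12 was found at Hoxd9 alone among these 6 genes, with a score of 92.4, beside 8.97% of all protein-coding genes. This count depends on the setting, as a further Med12 peak, from 74516885 to 74517826 with 83.9, covered the 5′ end of the Hoxd11 gene record. It was 2 genes by the 5′ end of the gene record, 5 with an interval of 5 kb and 0 with a score of at least 100. Of the paralogues of the Hox members, genes of the same number in the other clusters, 5 of the 8 annotated genes examined had an RNAP2 peak and 1 a Med12 peak, beside 41.8% and 8.97% of all protein-coding genes, and Hoxc3 was not annotated. The scores were 1437 at Hoxa3, 158 at Hoxb3, 78.7 at Hoxa4, 78.7 at Hoxc4 and 121 at Hoxb8, while Hoxb1, Hoxb4 and Hoxc8 had none. The Med12 peak, with a score of 51.5, was at Hoxa3.

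HOX proteins bind DNA together with homeodomain proteins of the PBX, MEIS and PREP (Pknox) families. Of 8 genes of these families examined, 6 had an RNAP2 peak at a start and 2 a Med12 peak, beside the same 41.8% and 8.97%, the exceptions for RNAP2 being Pbx4 and Meis3. The highest RNAP2 scores were 581 at Meis1, 441 at Pknox1 and 272 at Pbx2. The Med12 peaks, with scores of 42.2 and 49.8, were at Meis1 and Meis2. Metaxin 2 works in the outer mitochondrial membrane with metaxin 1, with metaxin 3, with Samm50, the core of the sorting and assembly machinery, and near the channels Vdac1 to Vdac3. Of these 6 genes 5 had an RNAP2 peak, beside 41.8% of all protein-coding genes, with scores of 345 at Vdac3 to 1544 at Mtx1, each above the 231 of Mtx2, and Mtx3 had none. Mtx1 was the only 1 of them with a Med12 peak, which scored 122, beside 8.97% of all protein-coding genes.

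The desert runs from 74603201 to 75453200. It holds 11 annotated genes, of which Mtx2 is the only protein-coding gene, 5 are noncoding transcripts, 4 are pseudogenes and 1 is an rRNA. The 26 RNAP2 peaks covered 35944 bp of it and the 30 Med12 peaks 34776 bp. Both lists go below a score of 50, to which the stated p-value threshold of the peak calling corresponds, and 21 of these RNAP2 peaks and 20 of the Med12 peaks reached it. By their centres, 17 RNAP2 peaks were intergenic, 4 in Mtx2 and 5 in other genes, and for Med12 these numbers were 21, 7 and 2. More than 1 kb from every annotated start lay 22 of 26 RNAP2 peaks, beside 52.2% of all RNAP2 peaks, and 28 of 30 Med12 peaks, beside 80.6% of all Med12 peaks. The last peaks inside the 850 kb were an RNAP2 peak at 842 kb with a score of 427 and a Med12 peak at 847 kb with a score of 45.5. The first beyond it lay at 893 and 897 kb, at Hnrnpa3, with scores of 3100 and 53.2. Hnrnpa3, an RNA-binding protein gene, is the next protein-coding gene and begins 44118 bp beyond the stretch.

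Of the 10 genes in the desert that are not protein-coding, Gm13652 was the only 1 with an RNAP2 peak within 1 kb of its start, beside 9.93% of all genes that are not protein-coding. Gm13652 is transcribed towards Hoxd1 from 74975855, and on the upstream side of this start an RNAP2 peak with a score of 160 began 30 bp away and a Med12 peak with a score of 91.9 began 2 bp away. A330043C09Rik, from 74985175 to 75015715, had 4 RNAP2 peaks and 1 Med12 peak in its span, and the nearest to its start was 4658 bp and 4553 bp away. Gm13658 had 1 RNAP2 peak and Gm13660 1 Med12 peak in their spans, 3066 bp and 1012 bp from their starts. Neither gene had a peak within 1 kb of its start. Gm13659, the pseudogenes Gm14425, Gm14427, Gm13654 and Gm13653, and the rRNA gene n-R5s198 had no peak in their spans or within 1 kb of their starts.

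RNAP2 and Med12 met at 9 sites in the desert, numbered here from Hoxd1 outwards. An overlap with Med12 was found for 10 of 26 RNAP2 peaks, 38.5% (95% Wilson interval 22.4 to 57.5%), beside 21.7% of the whole list. An overlap with RNAP2 was found for 9 of 30 Med12 peaks, 30.0% (16.7 to 47.9%), beside 42.7% of the whole list. These intervals cover counting error only. Site 1 joins 2 RNAP2 peaks to 1 Med12 peak. Away from annotated starts, 7 of 22 RNAP2 peaks overlapped Med12, beside 25.0% of the 10692 RNAP2 peaks away from starts in the whole list. Of the Med12 peaks away from starts, 7 of 28 overlapped RNAP2, beside 32.5% of 8567 in the whole list.

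The 3 highest scores of either list in the desert belonged to the same 3 sites, sites 3, 6 and 9. The reference sequence of 300 bases at the centre of the overlap is shown for these sites, on the plus strand and with capitals for the same letters as in the promoters.
Site 3, mm9 chr2:74867447-74867746, plus strand: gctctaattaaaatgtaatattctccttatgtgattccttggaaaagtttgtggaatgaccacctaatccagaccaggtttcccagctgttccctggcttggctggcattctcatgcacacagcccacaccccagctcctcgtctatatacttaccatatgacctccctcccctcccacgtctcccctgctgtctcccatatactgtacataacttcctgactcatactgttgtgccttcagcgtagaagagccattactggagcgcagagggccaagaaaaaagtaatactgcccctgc
Site 6, mm9 chr2:75046916-75047215, plus strand: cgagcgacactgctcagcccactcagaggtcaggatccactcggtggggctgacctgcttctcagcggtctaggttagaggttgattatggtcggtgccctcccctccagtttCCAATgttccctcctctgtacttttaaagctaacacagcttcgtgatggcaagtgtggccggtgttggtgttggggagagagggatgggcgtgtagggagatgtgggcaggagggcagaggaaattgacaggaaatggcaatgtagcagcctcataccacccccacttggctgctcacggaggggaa
Site 9, mm9 chr2:75446049-75446348, plus strand: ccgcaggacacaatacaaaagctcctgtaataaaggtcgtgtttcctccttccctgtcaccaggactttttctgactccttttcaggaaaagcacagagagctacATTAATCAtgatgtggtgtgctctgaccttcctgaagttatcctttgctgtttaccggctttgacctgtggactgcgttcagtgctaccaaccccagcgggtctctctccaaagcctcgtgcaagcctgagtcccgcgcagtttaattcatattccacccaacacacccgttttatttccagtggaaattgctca

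Site 9, at 842 kb, had RNAP2 from 75445305 to 75446985 with a score of 427, rank 4544 of the list, and Med12 from 75445412 to 75448131 with 318, rank 230. Site 3, at 264 kb, had RNAP2 from 74866953 to 74868240 with 358, rank 5181, and Med12 from 74866921 to 74868263 with 308, rank 254. Site 6, at 443 kb, had RNAP2 from 75046021 to 75048205 with 519, rank 3900, and Med12 from 75046112 to 75048018 with 205, rank 547. All 3 are intergenic. Their Med12 peaks were among the highest 5.14% or less of their list, whereas their RNAP2 peaks stood at 22.2%, 25.3% and 19.0% of theirs.

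The other 6 sites were lower. Site 1, at 102 kb in an intron of Mtx2, has been described with that gene. Site 2, at 247 kb, had RNAP2 from 74849557 to 74851092 with a score of 97.7 and Med12 from 74849735 to 74850654 with 55.0, and site 4 is the one next to the start of Gm13652. Site 5, at 407 kb in an intron of A330043C09Rik, had RNAP2 from 75010029 to 75011057 with 85.6 and Med12 from 75010136 to 75011162 with 124. Site 7, at 487 kb, had RNAP2 from 75090394 to 75091678 with 153 and Med12 from 75090469 to 75091548 with 103. Site 8, at 834 kb, had RNAP2 from 75436847 to 75437731 with 42.4, near the minimum of the list, and Med12 from 75436356 to 75437473 with 110. A score of at least 100 in both lists was reached at 4 sites, sites 3, 6, 7 and 9. In the desert, 9 of 26 RNAP2 peaks and 9 of 30 Med12 peaks had such a score, beside 56.7% and 18.5% of the whole lists.

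In the letters of the shared sites, 300 bases each, TATAAA occurred in 4 of 9 and CCAAT in 4 of 9, beside 35.3% and 40.2% of 2697 shared sites away from annotated starts in the whole lists. The PBX-HOX letters were found at site 9 alone, beside 6.01% of those sites, and the posterior HOX letters at site 7 alone, where they overlap a CCAAT match, beside 7.42%. GGGCGG occurred at site 4 alone, next to the start of Gm13652, beside 7.01% of those sites and 43.4% of all protein-coding promoters. Sites 1 and 4 lie within 1 kb of an annotated start, unlike the sites behind these shares. The GLI letters were at none of the 9, beside 0.148%. Sites 1 and 3 held none of the letters searched.

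**Figure D2:**
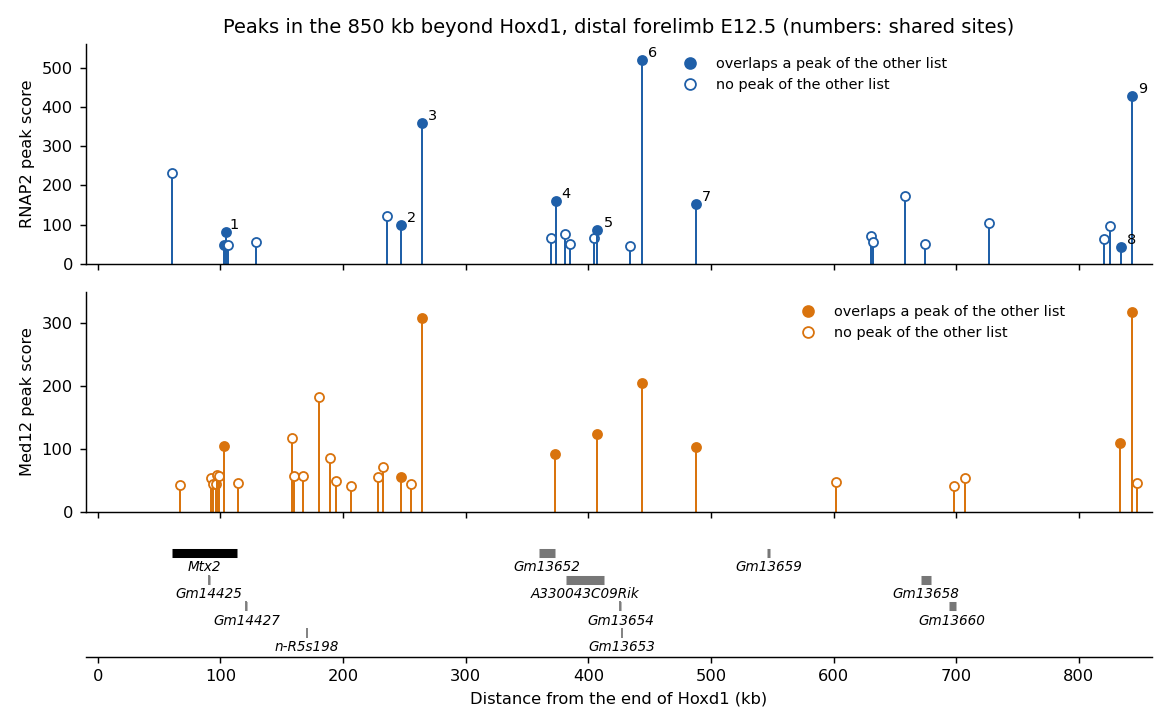
RNAP2 peaks (top) and Med12 peaks (middle) in the 850 kb beyond Hoxd1, each drawn as a line at its centre with the height of its score, against the distance from the end of Hoxd1 in kb. Filled points overlap a peak of the other list and open points do not, and the numbers name the 9 shared sites. Genes are drawn at the bottom, with Mtx2 in black. Sites 3, 6 and 9 have the 3 highest scores of each list, and Med12 peaks without RNAP2 gather between Mtx2 and site 2.

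The peaks were spread unevenly over the desert. In 10 consecutive bins of 85 kb, RNAP2 counts ran from 0 to 6 and Med12 counts from 0 to 10. Med12 was concentrated in the second and the third bin, 85 to 255 kb from Hoxd1, which held 10 and 7 peaks beside 4 and 2 RNAP2 peaks. The densest bin for RNAP2 was that from 340 to 425 kb, around Gm13652 and A330043C09Rik, with 6 peaks. The bin from 510 to 595 kb, which contains Gm13659, had no peak of either list. The first 85 kb held 1 peak of each list, both in Mtx2.

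Peaks of a single list formed runs. Between 74761055 and 74836150, from 158 kb beyond Hoxd1, 9 Med12 peaks followed each other over 75.1 kb without an RNAP2 peak, with scores of 40.6 to 182. This was the longest run of Med12 alone in the desert, ahead of the 6 in Mtx2. Of RNAP2 alone, the run with most peaks had 4 over 45.8 kb from 75232846, with scores of 49.9 to 173, and the run that spanned most sequence had 3 over 99.1 kb from 75329790, with scores of 62.8 to 103. The longest interval without a peak was 141 kb for RNAP2, from 75091679 to 75232845, and 125 kb for Med12, from 75310993 to 75436355. The median distance between neighbouring peaks of the desert was 14.5 kb for RNAP2 and 8.22 kb for Med12, beside 34.7 and 118 kb in the whole lists.

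Peaks shared between the lists had the higher median scores in the desert, as in the whole lists, and this difference was not tested. The median score of RNAP2 peaks was 126 for the 10 with Med12 and 66.0 for the 16 alone, beside 224 and 106 in the whole list. For Med12 it was 110 for the 9 with RNAP2 and 53.6 for the 21 alone, beside 80.5 and 50.1 in the whole list. The median over the desert was 78.7 for RNAP2, against 123 in the whole list and 76.2 away from starts, and 56.6 for Med12, against 56.8 in the whole list. By rank, 2 of 26 RNAP2 peaks were in the top 25% of their list and 19 in its lower 50%, and for Med12 these numbers were 11 and 15 of 30.

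**Figure D3:**
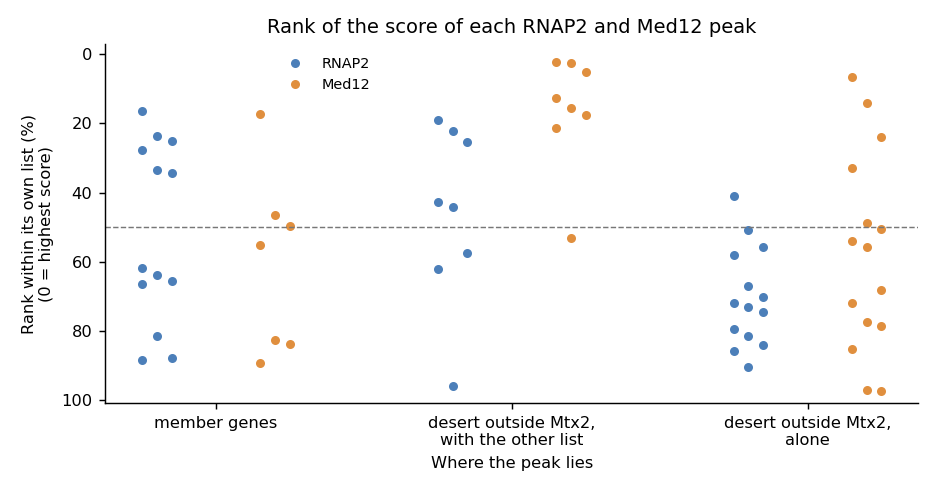
Rank of the score of each RNAP2 peak (blue) and Med12 peak (orange) within its own list in percent, with 0 for the highest score at the top, for peaks in the member genes, peaks of the desert outside Mtx2 that overlap the other list, and peaks there without it. The dashed line marks 50%. The Med12 peaks of the shared sites lie near the top except at site 2, whose Med12 peak stands at 53.1%, while the RNAP2 peaks without Med12 lie mostly below the dashed line.

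For comparison, stretches of 850 kb on the outer sides of Hoxd13 and Hoxa13 were counted in the same way. The stretch beyond Hoxd13 held 36 RNAP2 and 58 Med12 peaks, and that beyond Hoxa13 held 32 and 27. RNAP2 peaks that overlap Med12 numbered 10 beyond Hoxd1, 17 beyond Hoxd13 and 15 beyond Hoxa13. The highest Med12 score was 318 beyond Hoxd1, 693 beyond Hoxd13 and 363 beyond Hoxa13. Each stretch is a single region of 1 library per antibody, and these differences were not tested. The stretch beyond Hoxd1 has 1 protein-coding gene start and the others have 4 each.

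When windows of 850 kb were tiled along all chromosomes, the median was 4 RNAP2 and 3 Med12 peaks. As many RNAP2 peaks as in the desert were found in 85 of 3111 windows, or 2.73%, and as many Med12 peaks in 1, or 0.0321%. That window, from 73950001 to 74800000 on chromosome 2 with 67 Med12 peaks, contains HoxD itself and the first part of the desert. At least 7 RNAP2 peaks with Med12 away from starts were found in 42 windows, or 1.35%.

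**Figure D4:**
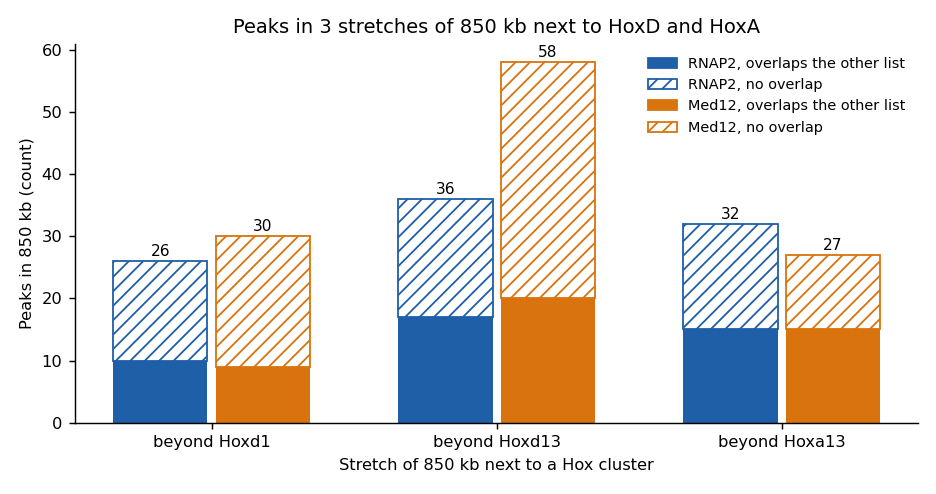
Number of RNAP2 peaks (blue) and Med12 peaks (orange) in 3 stretches of 850 kb next to HoxD and HoxA, with the filled part of each bar for peaks that overlap the other list and the hatched part for peaks that do not. The stretch beyond Hoxd1, with 26 and 30 peaks, lies below that beyond Hoxd13 in both lists, and below that beyond Hoxa13 in the RNAP2 list alone.

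Base composition was read from the mm9 sequence of each peak and is given as a description. The median GC content of RNAP2 peaks was 42.1% in the desert, with 25 of 26 below the median of the whole list, 49.0%, and 43.1% away from starts in the whole list. The exception was the peak at the start of Mtx2, at 52.0%. The median CpG ratio was 0.290 in the desert, 0.373 in the whole list and 0.219 away from starts. In the member genes, Mtx2 included, the medians were 49.0% and 0.551. Med12 peaks of the desert had medians of 41.7% and 0.211, beside 42.2% and 0.217 in their list. The highest CpG ratio among them, 0.602, was that of the peak next to the start of Gm13652.

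**Figure D5:**
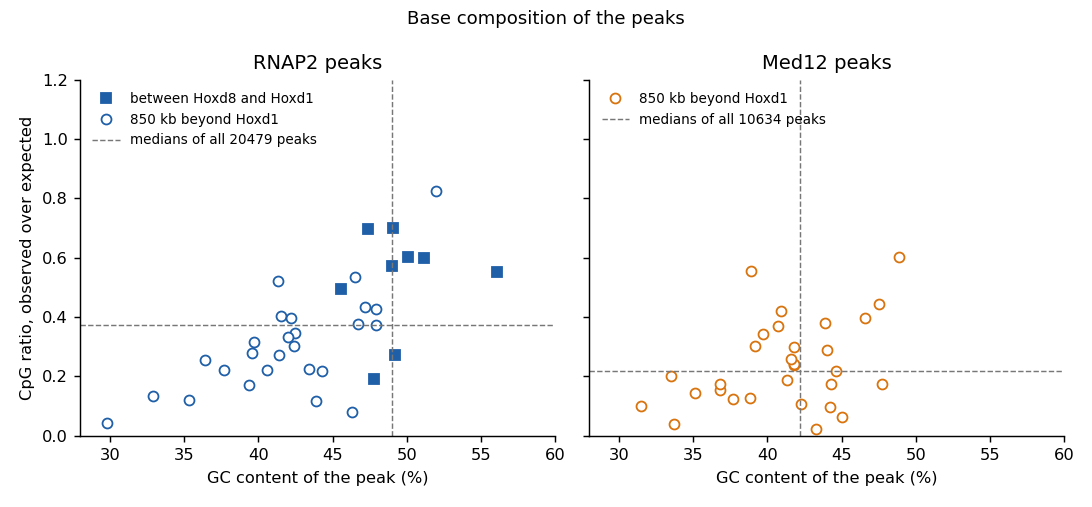
GC content in percent (horizontal) against the CpG ratio, observed over expected (vertical), of each RNAP2 peak (left) and Med12 peak (right), with squares for peaks between Hoxd8 and Hoxd1 and open circles for the 850 kb beyond Hoxd1. Dashed lines mark the medians of the whole list. RNAP2 peaks of the desert lie to the left of the line at 49.0% except that at the start of Mtx2, which has the highest CpG ratio, 0.826.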

How the data were processed

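Chromatin of E12.5 distal forelimb cells was precipitated for RNAP2 and for Med12, with 1 library each and 1 input library. The authors removed the first base of each read, aligned the reads to mm9 with Bowtie, discarded redundant reads and ran MACS 1.4.1 (builds and versions from the submitters' processing notes). Whether the input served as control is not given in the sources used here. The deposited lists hold positions (start and end) and, for each peak, a score equal to -10 times log10 of its p-value. The lists give no read counts, so no counting error could be had for a peak. The input has no peak list here and entered no comparison.

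Peaks that share at least 1 bp were counted as overlapping (Python 3.11.15, numpy 2.4.6), and the counting was tested on simulated lists and checked against bedtools 2.31.1. Starts come from GENCODE vM1, and a gene was counted when a peak lay within 1 kb of a protein-coding start. The genes in lists with several records were merged. Shares have 95% Wilson intervals, which cover counting error only. The reference was checked to be mm9 with 12 of 12 primer positions of the study. Sequences were read with pysam 0.24.0, figures drawn with matplotlib 3.10.9. RefSeq promoters, of another assembly, were matched by symbol for 5 of 5 members and placed in mm9 by their sequence.

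The named genes are the 5 members with their peaks, all genes annotated in the desert, the other HoxD genes, the paralogues and partners listed above and the first protein-coding gene beyond the stretch. Named desert peaks are those of RNAP2 with Med12 and the 3 highest of each list. Printed sequences are promoters of members with a peak and the 3 shared sites with the highest Med12 scores. Mir10b, 1700109F18Rik, 6720416L17Rik, the Hoxd1 promoter, the peaks at the ends of the stretch and the runs of peaks are not covered by the rule and were picked with their values in view. Members and lists were chosen with earlier results of these data known. The alternatives were scores of at least 50 and 100, peaks within 500 bp of each other taken as shared, an overlap of 50% of the shorter peak, assignment by peak centre, a stretch of 500 kb, a start interval of 5 kb, protein-coding starts alone, the gene span alone, the 5′ end of the gene record alone, and the central 300 bp for base composition. Other assays of the study were not analysed here, and some genes of these lists and a stretch next to HoxA are not reported here.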

Additional observations from a re-analysis of the deposited data

How the results depend on the processing

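No paired analysis was possible because the series has a single library per antibody and the results come from no test. Under 11 alternatives, 78 values were computed again for 24 results. Of these, 48 stayed within 1.5 times the reported count or within the spread of the reported value, and 30 moved. Changes of direction were not scored. The limits are those of single peak lists: no replicate, no depth, no binding under a score of 40, and a list of peaks whose number falls with the threshold. The stated p-value threshold of the peak calling corresponds to a score of 50, and the deposited lists go below it, so that 21 of the 26 RNAP2 and 20 of the 30 Med12 peaks of the desert would pass it.

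With a score of at least 100 fewer peaks remain, and the desert held 9 RNAP2 and 9 Med12 peaks, of which 7 and 8 lay away from starts and 4 and 4 overlapped the other list. RNAP2 stood at the starts of 3 members, Hoxd4 being lost. The spans of the member genes then held 6 RNAP2 peaks and 1 Med12 peak, and with a score of at least 50 they held 4 Med12 peaks. The stretch beyond Hoxd13 kept 18 and 14, and that beyond Hoxa13 19 and 9. The order of these stretches in the RNAP2 list was thus reversed, from 36 and 32 without the threshold. For Med12, the stretches beyond Hoxd1 and Hoxa13 were level at 9, against 30 and 27 without it. Med12 was left at 0 starts of the other HoxD genes and 0 of the paralogues, RNAP2 was left at 3 paralogues, and the shares of all protein-coding genes fell to 35.3% for RNAP2 and 2.22% for Med12. In stretches of 500 kb there were 17 RNAP2 peaks beyond Hoxd1, 23 beyond Hoxd13 and 18 beyond Hoxa13. The Med12 peaks there numbered 24, 51 and 16. Assigned by their centre, 11 RNAP2 peaks lay in the member genes instead of 13, without those that scored 363 at Hoxd8 and 613 at the end of Hoxd3. With a start interval of 5 kb, 5 of the other HoxD genes had a Med12 peak, and the shares of all genes were 44.7% and 11.9%. With the 5′ end of the gene record alone these were 2 genes, 40.0% and 8.19%, and RNAP2 was counted at 3 paralogues and Med12 at 0. The number of member genes with Med12 at the start was 0 under every alternative run for it.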
